A study of Tribolium castaneum with 17 samples.

Results

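The 7 genes described here, TC001195, TC003498, TC013724, TC008844, TC005338, TC012657 and TC012680, had a higher mean in embryos of 0-5 hr than in any other kind of sample of the red flour beetle, *Tribolium castaneum*. They are 7 of the 12302 gene models in the expression table. They were chosen by the measured values themselves: each was higher, at least 2-fold and at a false discovery rate (FDR) under 0.01, in embryos (0-5 hr) in each of 5 comparisons with another group. All comparisons with embryos (0-5 hr) are therefore given as a description with no test, and tests are given only for pairs of groups without them. For scale, 1400 gene models (11.4%) had their highest group mean in embryos (0-5 hr).

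The study profiled polyadenylated RNA of wild type GA2 beetles in 17 libraries, with 3 libraries in every group except testis, which had 2. Embryos of 6-11 hr (S4 to S6) and of 0-5 hr (S1 to S3) were pools of 80 to 100 individuals laid at 25°, and testes (S16 and S17), ovaries (S13 to S15), male carcasses (S10 to S12) and female carcasses (S7 to S9) were pooled from 30 beetles per library at 4 days after eclosion. Carcass stands for what is left of an adult once its testes or ovaries are dissected out. The ovaries came from virgin females, whereas the embryos were laid by older adults, so mother and egg were not of the same age or mating state. Values are CPM, the reads of a gene relative to the size of its library, scaled by the authors with the trimmed mean of M-values (TMM). A library held 18664366 to 34847471 reads in the gene models of the expression table, and 1 read was worth 0.0217 to 0.0595 CPM. No gene length was used, so levels are compared between samples and not between genes. In whole tissue, fewer cells of a type and less RNA per cell cannot be told apart.

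An insect egg is stocked with RNA made in the mother's ovary, and the first stage of embryogenesis runs on this maternal store. Later the genome of the embryo is switched on and many maternal transcripts are degraded, a change known as the maternal-to-zygotic transition. Poly(A) selection captures only RNA with a tail, and tail length of stored maternal RNA is regulated around egg activation in *Drosophila* and other animals. The expression table pairs none of the 7 identifiers with a gene name, so no function is given for them.

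TC001195 (gene2127) had the largest difference between the embryo stages among the 7. It had 9.46, 10.02 and 8.13 CPM in embryos (6-11 hr), against 73.5, 64.4 and 72.3 CPM in embryos (0-5 hr). It had 2.00 and 7.40 CPM in testis, 24.6, 25.0 and 27.4 CPM in ovary, 13.2, 11.8 and 13.7 CPM in male carcass and 20.3, 21.9 and 23.3 CPM in female carcass. No 2 groups overlapped when ordered by their means, from embryos (0-5 hr) through ovary, female carcass, male carcass and embryos (6-11 hr) to testis. The mean was 9.20 ± 0.966 CPM in embryos (6-11 hr) and 70.1 ± 4.93 CPM in embryos (0-5 hr) (SD, n = 3 each), so the later embryos held 13.1% of the level of the earlier ones. The 2 testis libraries differed most, with 34 reads in S16 and 129 in S17.

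TC008844 (gene10362) had, like TC001195, a female carcass level close to that of ovary and its lowest level in testis, and its male carcass level was close to that of ovary as well. It had 40.2, 38.8 and 24.1 CPM in embryos (6-11 hr), against 84.1, 66.5 and 79.7 CPM in embryos (0-5 hr). In testis it had 5.65 and 6.48 CPM, in ovary 34.6, 31.8 and 32.8 CPM, in male carcass 24.9, 33.8 and 23.8 CPM and in female carcass 31.7, 29.2 and 31.3 CPM. Embryos (0-5 hr) lay above all other libraries and testis below all of them. The ranges of embryos (6-11 hr) and male carcass each overlapped those of ovary and female carcass. The low 6-11 hr value was that of S6, and the other libraries of that stage lay above both.

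In the remaining 5 genes, both carcasses lay below ovary without overlap, as they also did in TC001195. The share of all genes with that order was not computed, so this only describes the members. TC003498 (gene3207) had 13.6, 13.9 and 12.5 CPM in embryos (6-11 hr), against 30.4, 35.1 and 27.6 CPM in embryos (0-5 hr). It had 11.8 and 6.94 CPM in testis, 15.9, 13.6 and 14.2 CPM in ovary, 4.87, 4.58 and 4.20 CPM in male carcass and 4.73, 4.92 and 3.62 CPM in female carcass. Ovary and embryos (6-11 hr) overlapped, as did the carcasses of both sexes, and the testis libraries lay between these levels. It was the member with the highest testis level relative to embryos (0-5 hr), 30.1% of their mean.

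TC013724 (gene6721) rested on the fewest reads of the 7 genes in embryos (0-5 hr), 323 to 454 per library. It had 4.43, 5.16 and 4.28 CPM in embryos (6-11 hr), against 13.9, 9.54 and 12.2 CPM in embryos (0-5 hr). It had 0.942 and 1.72 CPM in testis, 4.87, 5.03 and 5.52 CPM in ovary, 1.56, 1.01 and 1.18 CPM in male carcass and 1.96, 2.19 and 1.68 CPM in female carcass. Ovary overlapped embryos (6-11 hr), and testis overlapped both carcasses. The lowest of these values, in S16, rested on 16 reads.

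TC005338 (gene12547) had 6.56, 7.66 and 7.30 CPM in embryos (6-11 hr), against 20.2, 20.4 and 19.6 CPM in embryos (0-5 hr). It had 1.24 and 1.49 CPM in testis, 6.06, 4.60 and 4.69 CPM in ovary, 1.22, 1.19 and 0.716 CPM in male carcass and 1.85, 2.14 and 0.892 CPM in female carcass. Its 0-5 hr libraries were the closest to each other of the 7 genes, with a coefficient of variation of 2.12%. The 6-11 hr embryos lay above ovary without overlap, and female carcass overlapped both testis and male carcass.

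TC012657 (gene13634) had 95.3, 92.1 and 63.7 CPM in embryos (6-11 hr), against 172.2, 152.3 and 178.6 CPM in embryos (0-5 hr). It had 42.8 and 45.4 CPM in testis, 75.6, 81.0 and 78.4 CPM in ovary, 31.7, 25.8 and 28.3 CPM in male carcass and 43.4, 44.3 and 43.1 CPM in female carcass. The ovary range lay inside that of embryos (6-11 hr), and the female carcass range inside that of testis. Male carcass was below every other group. Its mean was 83.7 ± 17.4 CPM in embryos (6-11 hr) and 167.7 ± 13.7 CPM in embryos (0-5 hr) (SD, n = 3 each), a ratio of 2.003 for the earlier over the later stage, the smallest of the 7 genes.

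TC012680 (gene13678) was nearly absent from carcasses. It had 10.1, 9.21 and 8.83 CPM in embryos (6-11 hr), against 24.3, 19.6 and 21.1 CPM in embryos (0-5 hr). It had 1.12 and 4.48 CPM in testis, 8.01, 7.22 and 6.21 CPM in ovary, 0.438, 0.119 and 0.358 CPM in male carcass and 0.816, 0.248 and 0.367 CPM in female carcass. Only the carcasses of both sexes overlapped. The carcass values rested on 2 to 15 reads per library, and the 2 reads in S11 have an exact 95% Poisson interval of 0.0144 to 0.430 CPM, which covers counting error only. The testis libraries differed here as well, with 19 reads in S16 and 78 in S17.

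**Figure D1:**
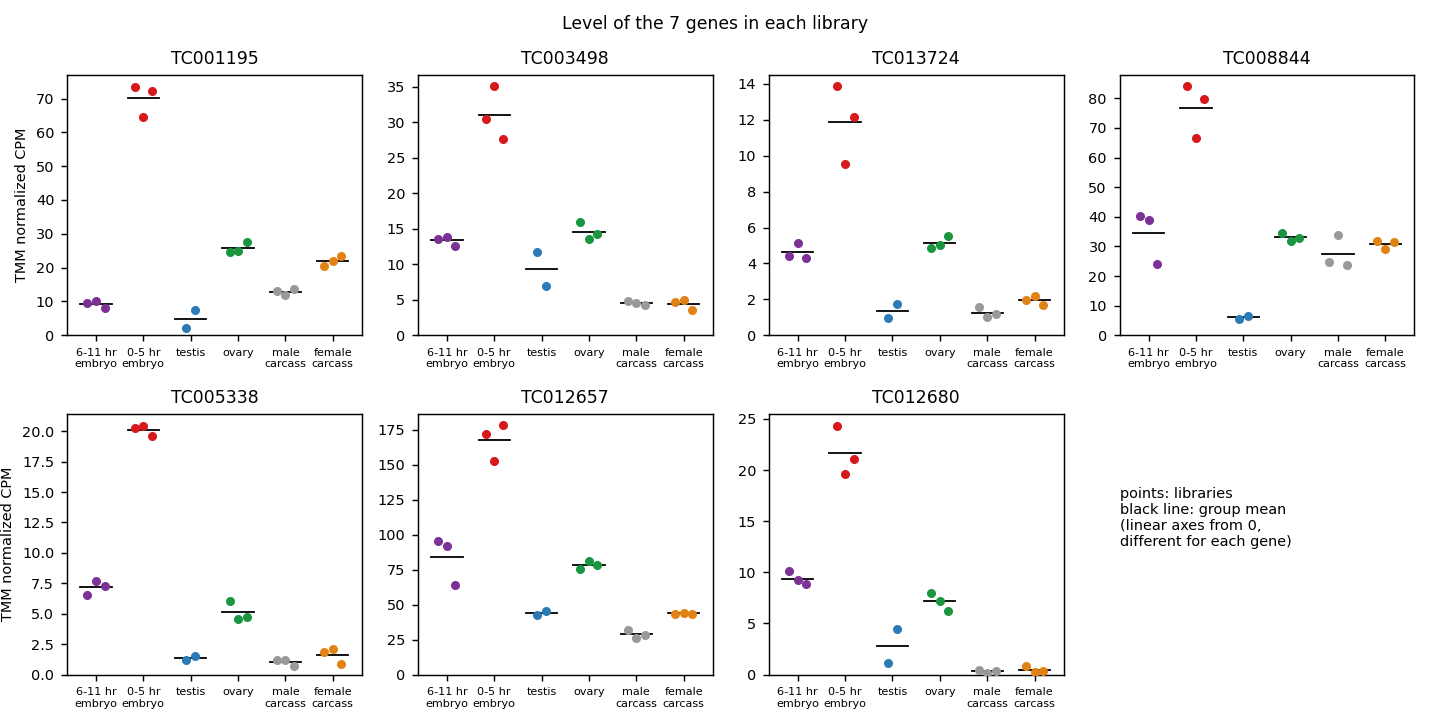
CPM of each of the 7 genes (y axes, own scale per gene) in the libraries of the 6 groups (x axis). Each point is 1 library and each bar is the group mean. The 3 libraries of embryos (0-5 hr) lie above the libraries of all other groups for every gene, TC012680 is under 1 CPM in all carcass libraries, the carcass levels of TC008844 are near those of ovary, and in TC001195 only female carcass is near ovary.

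Across the 7 genes, embryos (6-11 hr) held 13.1% to 49.9% of the mean level of embryos (0-5 hr), with a median of 43.0%, and ovary held 25.5% to 46.9%, also with a median of 43.0%. Testis held 6.71% to 30.1%, male carcass 1.41% to 35.8% and female carcass 2.20% to 40.1%. The second highest group was embryos (6-11 hr) for 4 genes and ovary for 3. The lowest group was male carcass for 4 genes, testis for 2 and female carcass for 1. The drop between the embryo stages ran from 1.01 to 2.80 on the log2(CPM + 1) scale, and TC001195 was alone at the far end, the next being TC005338 with a log2 fold change of -1.37.

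Because the genes were chosen on these contrasts, their calls are fixed by the choice. Of all 12152 genes tested, 2.11% were lower in embryos (6-11 hr) than in embryos (0-5 hr). Embryos (0-5 hr) were higher than testis for 21.9% of genes, than ovary for 8.80%, than male carcass for 27.5% and than female carcass for 26.1%, and the 7 genes are the 0.0576% that met all 5 conditions. A gene was called here where its log2 fold change in limma was 1 or more in size with an adjusted p under 0.01. The study used edgeR at the same thresholds, and its counts differed. It listed more genes with preferential expression in embryos (0-5 hr) than the 7 here, and far fewer that were higher there than in ovary. The reason for the difference was not tested.

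The margins of this choice were narrow for several members. The smallest of the 5 log2 differences of a gene, always against embryos (6-11 hr) or ovary, was 1.01 for TC012657, 1.04 for TC003498, 1.05 for TC013724, 1.12 for TC012680, 1.16 for TC008844, 1.37 for TC005338 and 1.41 for TC001195. Just outside the list, TC032552 had a smallest difference of 1.62, TC005315 of 1.20 and TC001412 of 1.11, and they were left out by the FDR and not by the size. TC032552 averaged 497.7 CPM in embryos (6-11 hr) and 1532 CPM in embryos (0-5 hr). TC005315 averaged 205.7 CPM in embryos (6-11 hr) and 632.3 CPM in embryos (0-5 hr), and TC001412 averaged 111.9 CPM in embryos (6-11 hr) and 242.3 CPM in embryos (0-5 hr). The adjusted p of that smallest difference was 0.114 for TC032552, 0.0934 for TC005315 and 0.0333 for TC001412, given only to place the limit of the list.

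**Figure D2:**
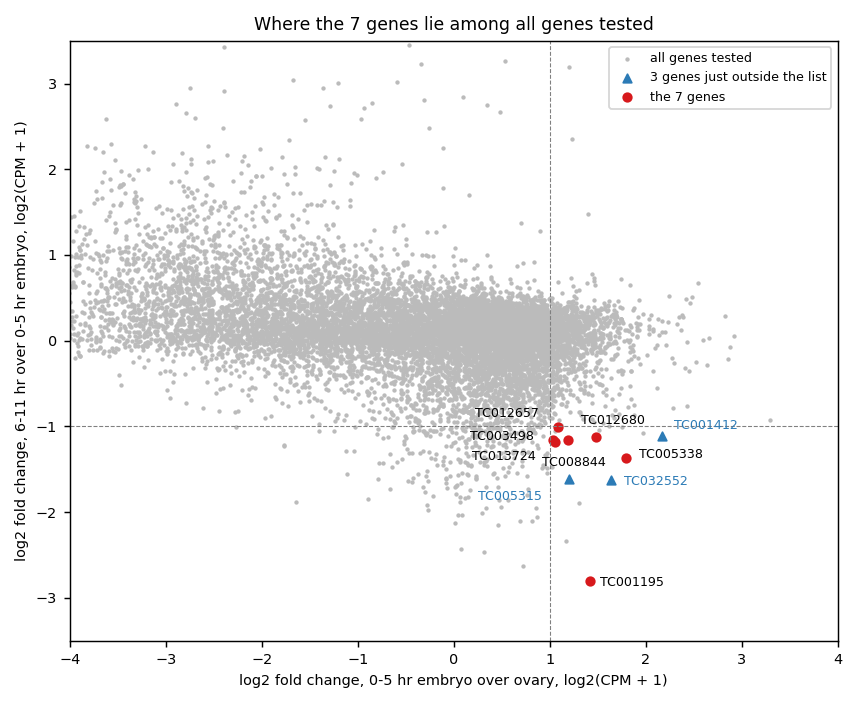
Log2 fold change of embryos (0-5 hr) over ovary (x axis) against that of embryos (6-11 hr) over embryos (0-5 hr) (y axis), both on log2(CPM + 1), for the genes tested; dashed lines mark a 2-fold change. The 7 genes (circles) lie in the lower right, close to the lines except TC001195 at -2.80 on the y axis, and triangles are the 3 genes just outside the list. The 0-5 hr libraries enter both axes with opposite sign, so the tilt of the cloud is not a result, and 414 genes lie outside the axes.

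One library bears on the margin. S6, labelled 6-11 hr, was 52.0 from S3 of the 0-5 hr embryos by Euclidean distance on log2(CPM + 1) over all genes, and 59.9 and 62.6 from the other libraries of its stage. In the 7 genes it did not lie towards the 0-5 hr embryos, but this is a description only. The choice used the libraries of both stages and favoured genes that were low in all of embryos (6-11 hr). The counts of S6 and S2 given here are therefore not free of the choice. S6 was the lowest 6-11 hr library in 6 of the 7 genes, against 51.7% of all genes tested. It was nearer to the 0-5 hr embryos than the mean of S4 and S5 in 1 of them, against 49.1% of all genes. Without S6, the mean in embryos (0-5 hr) was 1.79-fold that of the next group for TC012657 and 1.94-fold for TC008844, so that 5 of the 7 genes remained at 2-fold or more. Leaving out a 0-5 hr library also took 1 gene under 2-fold in each case, TC012657 at 1.98-fold without S1 and 1.94-fold without S3, and TC003498 at 1.99-fold without S2. S2 was the lowest of the 0-5 hr libraries in 5 of the 7 genes, against 33.7% of all genes tested.

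The scaling also bears on it, mainly against ovary. Under library totals alone, without TMM factors, the ratio of embryos (0-5 hr) over ovary ran from 1.82 to 3.34, and 3 of the 7 genes (TC001195, TC005338 and TC012680) kept a ratio of 2 or more over every group. The median log2 difference of all genes between embryos (0-5 hr) and ovary was -0.05 with the authors' scaling and -0.26 under library totals. The same change of scaling moved the median of all genes to 0.74 for ovary against female carcass, 0.60 for ovary against male carcass and -0.63 for testis against ovary, from values within 0.05 of 0. All 7 genes were higher in embryos (0-5 hr) than in every other group under both scalings.

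The 10 pairs among embryos (6-11 hr), testis, ovary, male carcass and female carcass were not used in choosing the genes. They were tested in limma on log2(CPM + 1) over all 17 libraries, with Benjamini-Hochberg adjustment over the 12152 genes with at least 5 CPM in at least 3 libraries, a filter that all 7 genes passed. Of the 70 combinations of gene and pair, 35 were called, 24 higher and 11 lower in the first group of the pair. Over all genes and pairs, 48.3% of combinations were called, 21.1% higher and 27.2% lower, so the number of calls among the 7 genes was near that of all genes. These p-values rest on the spread between libraries within groups, each library being a pool, with an estimate for each gene that all groups share. Where the spread of a gene is larger in testis than in other groups, it is understated. Since the pairs share groups, they are not independent of each other. Their p-values are not free of the choice, whose FDR used the spread of each gene and whose contrasts used these groups.

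Between embryos (6-11 hr) and ovary, TC001195 was the only gene of the 7 called, lower in embryos (6-11 hr) than in ovary with a log2 fold change of -1.39 (SE 0.25, adjusted p = 0.00017), where 28.0% of all genes were called lower. The other 6 genes had log2 fold changes of -0.13 to 0.42, and the median of the 7 was 0.02 beside -0.11 over all genes tested. TC005338 was the furthest up of these, at 0.42 (SE 0.20, adjusted p = 0.062).

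Against the male gonad the 6-11 hr embryos were higher. In embryos (6-11 hr) against testis, 5 of 7 genes rose, where 22.7% of all genes were called higher, and none was called lower. The log2 fold change was 2.29 for TC008844 (SE 0.20, adjusted p = 3.89e-08), 1.79 for TC005338, 1.61 for TC012680, 1.29 for TC013724 and 1.02 for TC001195. TC012657, at 0.89, and TC003498, at 0.51, were not called. The calls of TC001195 and TC012680 rested on S16: without it their log2 fold changes were 0.28 (adjusted p = 0.124) and 0.92, and 3 genes were called. The call of TC001195 was also lost without S4 (0.998, adjusted p = 0.0118) and without S5 (0.96, adjusted p = 0.0142), and in edgeR (adjusted p = 0.0196), while TC012657 was called without S6 (1.07), under library totals (1.24) and in DESeq2.

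Against the carcasses the genes split. In embryos (6-11 hr) against male carcass, 5 of 7 genes rose, where 28.2% of all genes did, namely TC012680 (log2 fold change 2.999), TC005338 (2.01), TC012657 (1.499), TC003498 (1.37) and TC013724 (1.33). In embryos (6-11 hr) against female carcass, 3 of 7 rose, where 27.0% of all genes did: TC012680 (2.83), TC005338 (1.67) and TC003498 (1.41). TC013724 (0.94) and TC012657 (0.90) stood just under the fold threshold there, and TC012657 was called without S6 (1.09) and under library totals (1.35). TC013724 was called in edgeR (1.25), in DESeq2 (1.26), with 0.1 added to each CPM (1.21) and under library totals (1.24). TC001195 went the other way and was lower in embryos (6-11 hr) than in female carcass, with a log2 fold change of -1.17 (SE 0.25, adjusted p = 0.00055), where 35.4% of all genes were called lower. That call was lost under library totals (-0.74, adjusted p = 0.0219). TC008844 was called in neither pair, with log2 fold changes of 0.30 against male carcass and 0.12 against female carcass.

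In the gonads, the genes were lower in testis. Of the 7 genes, 5 fell in testis against ovary, where 21.1% of all genes did, and none was called higher. The log2 fold change was -2.41 for TC001195 (SE 0.28, adjusted p = 2.24e-06), -2.27 for TC008844, -1.42 for TC013724, -1.37 for TC005338 and -1.25 for TC012680. TC012657, at -0.81, and TC003498, at -0.63, were not called, but had the same sign, and the median of the 7 genes was -1.37 beside -0.03 over all genes. The call of TC012680 was lost without S16 (-0.57, adjusted p = 0.0607), the testis library in which its level was the lower, and in edgeR (adjusted p = 0.0242). Under library totals all 7 genes were called lower in testis, but the median of all genes moved to -0.63 as well. The share of all genes called lower under that scaling was not computed.

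In ovary against the carcasses, calls were made only in the direction of ovary. In ovary against male carcass, 5 of 7 genes rose, where 19.6% of all genes did: TC012680 (log2 fold change 2.64), TC005338 (1.59), TC003498 (1.49), TC013724 (1.46) and TC012657 (1.43). In ovary against female carcass, 4 of 7 rose, where 19.8% of all genes did: TC012680 (2.48), TC003498 (1.53), TC005338 (1.25) and TC013724 (1.06). The call of TC013724 against female carcass was at the threshold and was lost without S9 (0.999) and with RLE factors (0.99). Also not called against female carcass were TC012657 (0.83), which passed the FDR, TC001195 (0.22, adjusted p = 0.441) and TC008844 (0.10, adjusted p = 0.621). Against male carcass, TC008844 (0.27) was not called, and TC001195 (0.94, adjusted p = 0.00359) was just under the fold threshold and was called in edgeR (1.01, adjusted p = 0.00634) and under library totals (1.51). The medians of the 7 genes were 1.46 against male and 1.06 against female carcass, beside 0.03 and 0.05 over all genes.

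The testis gave calls in both directions. In testis against male carcass, TC008844 (log2 fold change -2.00) and TC001195 (-1.47) fell, where 30.2% of all genes did, and TC012680 (1.39) rose, where 27.5% did. In testis against female carcass, TC001195 (-2.18) and TC008844 (-2.17) fell, where 32.8% of all genes did, and TC012680 (1.22) rose, where 27.1% did. These shares were near the background of all genes. The calls of TC012680 were lost without S17 (0.71 against male and 0.54 against female carcass), and that of TC001195 against male carcass was lost without S16 (-0.72). TC003498, at 0.86 against male and 0.90 against female carcass, was called in both pairs without S17 (1.20 and 1.24) and, with all libraries, in edgeR (1.05 and 1.09). Against female carcass it was also called in DESeq2 and with 0.1 added to each CPM.

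In male against female carcass, 0 of the 7 genes were called in limma, edgeR or DESeq2, where 5.19% of all genes were called in either direction in limma. At an unadjusted p under 0.05 in limma, 2 genes were lower in male carcass, and the share of all genes at that limit was not computed. They were TC012657 with a log2 fold change of -0.60 (adjusted p = 0.00639) and TC001195 at -0.72 (adjusted p = 0.0855). Of the 7 log2 fold changes, 1 was above 0, that of TC003498 at 0.04. TC012657 thus passed the FDR and not the 2-fold threshold.

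**Figure D3:**
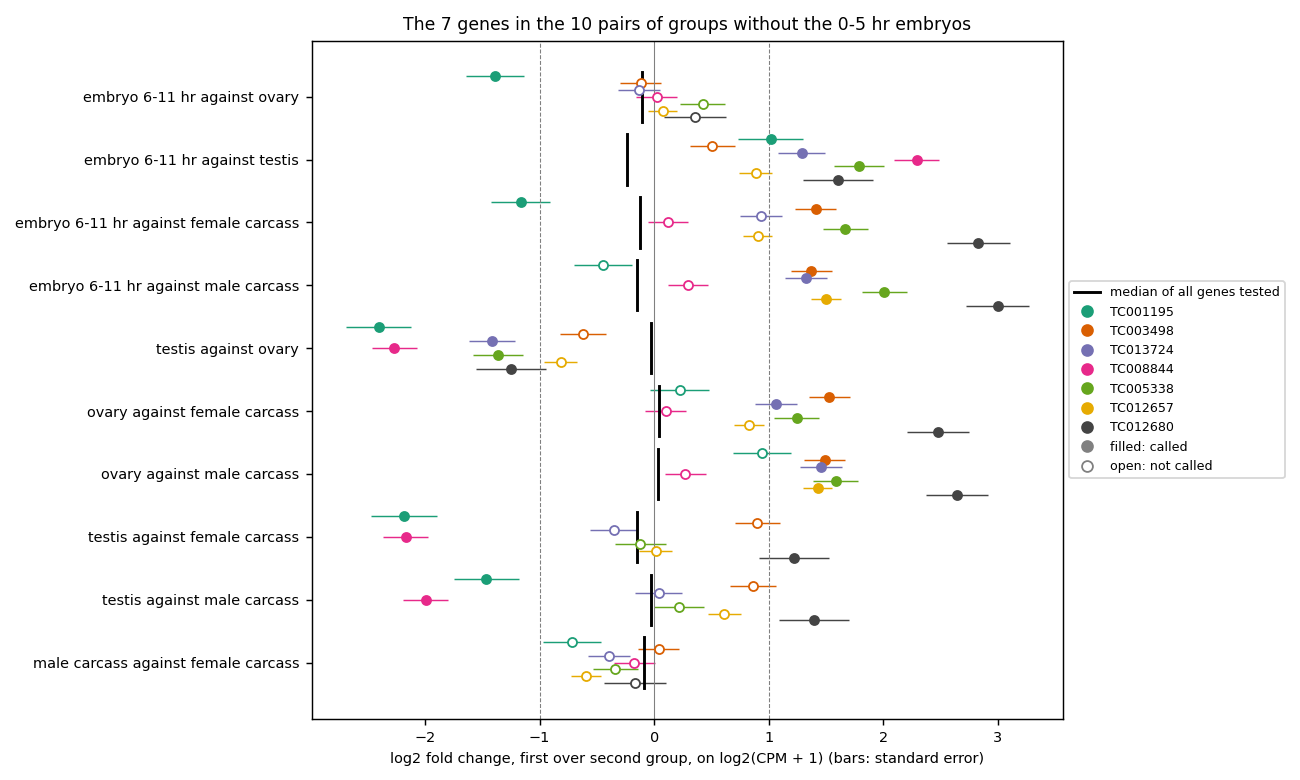
Log2 fold change of the first over the second group on log2(CPM + 1) (x axis) in the 10 pairs of groups without the 0-5 hr embryos (rows), for each of the 7 genes. Filled circles are called genes, open circles are not, bars are standard errors, the black tick is the median of all genes tested and dashed lines mark a 2-fold change. TC001195 and TC008844 lie left of the other 5 genes where embryos (6-11 hr), testis or ovary are set against a carcass, and all 7 genes lie left of 0 in testis against ovary.

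The difference between gonad and carcass was compared between the sexes, as testis minus male carcass against ovary minus female carcass. It was lower in males for 4 of 7 genes, where 15.3% of all genes were called lower, and the median of the 7 was -1.03 beside 0.07 over all genes. The difference was -2.10 on the log2 scale for TC008844 (SE 0.27, adjusted p = 9.62e-06), -1.69 for TC001195 (SE 0.38, adjusted p = 0.00163), -1.03 for TC005338 (SE 0.29, adjusted p = 0.00818) and -1.03 for TC013724 (SE 0.27, adjusted p = 0.00534). TC008844 kept its call without any 1 library, and, among the single libraries left out, TC001195 lost it only without S16 (-0.94). TC013724 lost it without S7, S9, S10, S12, S15 or S16 (adjusted p up to 0.0342), and TC005338 kept it only without S6, S7, S8 or S12 (adjusted p up to 0.0298 in the others). Both also lost it in edgeR (adjusted p = 0.0123 for TC013724 and 0.0292 for TC005338). TC003498 was called without S16 (-1.01) and TC012680 without S17 (-1.77).

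Marker genes that the study named on these samples fitted the labels in part. The 3 testis markers summed to 5691 to 7288 CPM in testis, 156.7 to 420.6 CPM in male carcass and 3.18 to 7.29 CPM in female carcass, so testis transcripts were present in the male carcasses, and their part in the male carcass results was not tested. Both carcass markers, flightin, a flight muscle protein, and henna, a phenylalanine hydroxylase, were highest in carcass, and of the 3 embryo markers 2 were highest in embryos (6-11 hr) and 1 in testis. Of the 3 ovary markers, 0 were highest in ovary: loco (TC009818) and quail (TC013108) were highest in female carcass and TC034053 in embryos (0-5 hr), and the 3 summed to 564.2 to 676.2 CPM in ovary and 279.2 to 324.8 CPM in female carcass. Whether ovary RNA was present in the female carcass cannot be read from these markers, and its part in the female carcass results was not tested.

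The 7 genes varied together unequally. Over the 17 libraries, Pearson's r of log2(CPM + 1) between 2 members ran from 0.48 to 0.97 over the 21 pairs, with a median of 0.85, but the 0-5 hr libraries were used in choosing the genes. Over the 14 libraries without them it ran from -0.16 to 0.94, with a median of 0.72. TC013724 and TC005338 were the most alike in those 14 libraries (0.94), followed by TC013724 and TC012657 (0.93), and TC001195 and TC003498 were the least alike (-0.16). TC001195 and TC008844 had 0.72 with each other and -0.16 to 0.51 with the other 5 genes, which had 0.79 to 0.94 among themselves. The points are libraries of a few groups, so these values describe the order of the groups more than libraries within them.

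For each member, the genes with the most similar pattern over the 17 libraries were none of the other members. They were TC031955 (r = 0.96) and TC001336 (0.95) for TC001195, and TC001458 (0.97) and TC001773 (0.97) for TC008844. They were TC015165 (0.98) and TC005516 (0.97) for TC003498, TC009301 (0.98) and TC034903 (0.98) for TC005338, TC012366 (0.99) and TC015826 (0.99) for TC012657, and TC000081 (0.99) and TC012073 (0.98) for TC012680. They were TC034689 (0.98) and TC016015 (0.97) for TC013724. All of these also had their highest mean in embryos (0-5 hr), but with a smaller ratio over the next group than their member. Neither is a separate result. The similarity was computed with the 0-5 hr libraries, and the 7 genes alone met all 5 conditions. Over the 14 libraries without embryos (0-5 hr), r of these genes with their member ran from 0.90 to 0.98. TC000081, for example, averaged 75.6 CPM in embryos (6-11 hr), 106.1 CPM in embryos (0-5 hr), 51.6 CPM in testis, 64.9 CPM in ovary, 23.7 CPM in male carcass and 26.9 CPM in female carcass. TC001336 shared with TC001195 a female carcass level close to that of ovary, with 123.1 CPM in embryos (0-5 hr), 82.6 CPM in ovary and 82.8 CPM in female carcass.

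TC034689, the gene most similar to TC013724, is also the gene model numbered directly before it in the table (gene6720). TC034689 averaged 129.7 CPM in embryos (6-11 hr), 324.6 CPM in embryos (0-5 hr), 55.2 CPM in testis, 165.6 CPM in ovary, 39.6 CPM in male carcass and 52.1 CPM in female carcass. The reads of TC013724 were 1.70% to 4.21% of those of TC034689 in every library. The median share was 3.41% in embryos (6-11 hr), 3.56% in embryos (0-5 hr), 2.42% in testis, 3.26% in ovary, 3.01% in male carcass and 3.60% in female carcass, so the low-count gene followed its neighbour while both changed several-fold. TC034689 itself had a log2 difference of 0.97 between embryos (0-5 hr) and ovary, just short of the 2-fold limit. Whether the gene models overlap, and on which strand, was not analysed here, so reads of TC013724 that come from TC034689 cannot be told apart from its own.

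**Figure D4:**
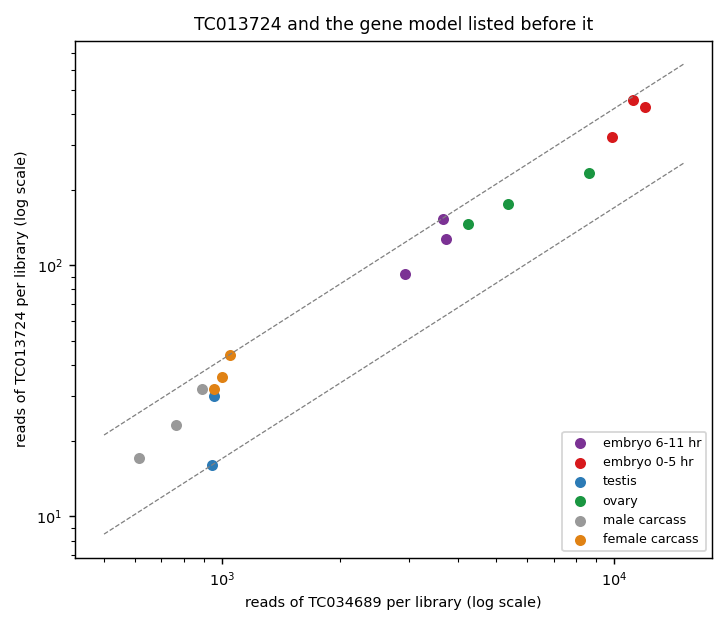
Reads of TC013724 (y axis, log scale) against reads of TC034689 (x axis, log scale), 1 point per library, coloured by group. The dashed lines mark 1.70% and 4.21% of the reads of TC034689, between which all 17 libraries lie, from the carcass and testis libraries at the lower left to the 0-5 hr embryos at the upper right.

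The share of reads was not computed for the other neighbours. Of the 14 gene models listed directly before or after a member, 4 had their highest mean in embryos (0-5 hr), and r with the member ran from -0.68 to 0.98 with a median of 0.65. Both neighbours of TC005338 were among these 4, TC005339 (r = 0.88) and TC006793 (0.86), at 182.9 and 156.9 CPM in embryos (0-5 hr). TC012657 and TC012680 were numbered 44 gene models apart, the closest of the members to each other.

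Of 10 other genes that the study named for early embryos, 0 had their highest mean in embryos (0-5 hr), 3 had it in embryos (6-11 hr), 6 in testis and 1 in female carcass. For most of them the study did not claim a peak in embryos (0-5 hr). It gave TC005375, TC015380, TC030997, TC008514, TC009052 and TC033031 as zygotic genes, and *myd88* (TC003185) as expressed in ovary and both embryo stages. *caudal* (TC032769), a homeobox gene of posterior patterning, averaged 140.0 CPM in embryos (6-11 hr) and 128.0 CPM in embryos (0-5 hr), beside 24.1 CPM in ovary. The study listed it among genes with preferential expression in embryos (0-5 hr), whereas its mean here was not higher than in embryos (6-11 hr). TC005375 averaged 55.9 CPM in embryos (6-11 hr) and 0.0193 CPM in embryos (0-5 hr).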

How the data were processed

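Single-end 75-nt poly(A) reads of 17 libraries were, per the study's methods, aligned by the authors with HISAT2 2.0.5 to Tcas5.2, counted per gene model with BEDTools and scaled with TMM factors from edgeR, keeping genes at 5 CPM or more in 3 or more samples. The deposited values are the authors' TMM-normalized CPM (a normalized signal, not counts) for 12302 gene models. Dividing by the value of 1 read gave whole reads for 100% of 209134 values within 0.01 read.

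Groups were taken from the sample labels. The main test was limma 3.58.1 (R 4.3.3, trended and robust) on log2(CPM + 1), all libraries in 1 model, on 12152 genes at 5 CPM or more in 3 or more libraries, with Benjamini-Hochberg adjustment per comparison; calls needed an absolute log2 fold change of at least 1 and an adjusted p under 0.01. It was run on simulated data for some of the comparisons, with the spread of a gene shared by all groups. Those data do not cover a larger spread in testis than in other groups. A pseudocount of 1 understates fold changes of low genes. Alternatives were the quasi-likelihood test of edgeR 4.0.16 and DESeq2 1.42.0 on recovered reads, library totals, RLE factors, 0.1 or 5 added, no filter, other thresholds, only the groups compared, and each library left out. Intervals are exact Poisson, for counting error only.

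The members and lists were chosen with earlier results of these data known. Besides the members, the text names the 2 genes most alike each member, the 3 genes just outside the list, genes next to a member, and stage and marker genes named by the study. Genes next to a member were added after values were seen. Of 12282 TC identifiers, 1 matched the 15518 genes of the reference table, and none of the members, so names, sequences and promoter motifs were not used here. Tables and plots were made with matplotlib 3.10.9, scipy 1.17.1 and pandas 2.3.3 under Python 3.11.15.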

Additional observations from a re-analysis of the deposited data

Results flagged for a closer look

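The change from carcass to gonad differed between the sexes for 4 of the 7 genes, by limma's test of the difference itself (testis minus male carcass, against ovary minus female carcass). On the log2(CPM + 1) scale the difference was -2.10 for TC008844 (adjusted p = 9.62e-06), -1.69 for TC001195 (adjusted p = 0.00163), -1.03 for TC013724 (adjusted p = 0.00534) and -1.03 for TC005338 (adjusted p = 0.00818). For TC008844 and TC001195, testis was below male carcass while ovary was near female carcass. For TC013724 and TC005338, testis was near male carcass (0.04 and 0.22) while ovary was above female carcass (1.06 and 1.25).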

How the results depend on the processing

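The 39 calls of a gene outside the 0-5 hr contrasts were recomputed under the alternatives, giving 1053 values, of which 958 kept the call, 95 fell short of a threshold and 0 changed sign. Over the 10 pairs, 41 calls were made under library totals, 38 in DESeq2, 37 in edgeR, 36 with 0.1 added, 34 with RLE factors and 29 with only the groups compared. With 5 added to each CPM, 16 calls were made over the 10 pairs in place of 35: 1 each in embryos (6-11 hr) against testis, embryos (6-11 hr) against female carcass and testis against male carcass, 2 in testis against ovary and in ovary against female carcass, and 3 in embryos (6-11 hr) and in ovary against male carcass. At a log2 fold change of 2 there were 10: 0 in embryos (6-11 hr) against ovary and testis against male carcass, 1 in embryos (6-11 hr) against testis, embryos (6-11 hr) against female carcass and ovary against either carcass, and 2 in embryos (6-11 hr) against male carcass and testis against ovary. With only the groups compared in the model, 3 were called in embryos (6-11 hr) against testis and 1 in testis against male carcass. The difference of the gonad-carcass change between the sexes was called for 2 genes with 0.1 or 5 added, with edgeR's quasi-likelihood test or with only the groups compared, for 1 at a log2 fold change of 2, and for 7 under library totals. Under library totals its median over all genes was -0.68, in place of 0.07. Shares of all genes called were not computed under the alternatives. Under library totals, 3 genes kept a 2-fold lead in embryos (0-5 hr) over each other group. With 1 library left out, calls ran from 31 to 37 over the 10 pairs, from 3 to 6 in embryos (6-11 hr) against testis, from 4 to 5 in embryos (6-11 hr) against female carcass and in testis against ovary, from 3 to 4 in ovary against female carcass, from 2 to 3 in testis against male carcass, from 2 to 4 for the difference between the sexes (2 without S9, S10, S15 or S16), and from 5 to 7 for the 2-fold lead. Adding 5 to each CPM shrinks fold changes, and a stricter threshold can only remove calls, both by construction. The cause of the other changes, including those with a library left out, was not tested. The labels do not say whether gonad and carcass pools came from the same beetles. No paired analysis was therefore made, and the groups were treated as independent. Depth limits TC012680 in carcasses (2 to 15 reads) most, and 2 testis libraries limit every testis result.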
